A study of Mus musculus with 8 samples.

Results

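The imprinted Dlk1-Dio3 domain of mouse chromosome 12 holds one of the largest groups of miRNA genes in the mammalian genome. Its mature miRNAs were read here as every mouse miRNA on the array, passenger ("star") arms left out, whose annotated position lies on chromosome 12 between 110750000 and 111050000 (mm9). That rule gave 60 members among 453 mouse miRNAs that are not star arms and 567 mouse miRNAs in all, and it used position only, not signal. The 13 star arms of the same window were kept apart and are described after the members.

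The RNA came from bone-marrow-derived dendritic cells of C57BL/6 mice, an inbred laboratory strain. Marrow was grown in GM-CSF, a growth factor that steers marrow cells towards dendritic cells, at 40 ng/ml, and the cells that did not adhere were taken on day 9. The 4 untreated samples received no oligonucleotide, their vehicle being given as PBS in the treatment protocol. The 4 CpG samples were held overnight with ODN1826, a class B CpG oligonucleotide, at 10 µM. CpG oligonucleotides carry unmethylated CG pairs and are ligands of the receptor TLR9. Both groups share the strain, the GM-CSF culture and the harvest day, and no sorting step and no control oligonucleotide is named in the labels. The labels number the replicates without saying whether each was its own animal or culture, so a p-value here reflects sample-to-sample spread that may be technical only.

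In this domain Dlk1, Rtl1 and Dio3 are expressed from the paternal chromosome, while the non-coding RNAs Meg3, Rian and Mirg are expressed from the maternal one. The miRNAs are cut from those maternal transcripts, so that the whole series of genes is usually active or silent together. They are known for expression in the embryo, the placenta and the brain, and the domain has also been studied in blood stem cells and in pluripotent cell lines, where it is often silenced. A miRNA acts by pairing its seed, the bases near its 5′ end, with target mRNAs. Within the domain, miR-127, miR-433 and miR-431 lie antisense to Rtl1 and are known to target its transcript. The long run from miR-379 to miR-410 lies in Mirg, and several of its members, miR-134 and miR-329 among them, are studied mainly in neurons.

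The sequences below are those the results turn on, printed from RefSeq (GRCm38.p6), 5′ to 3′, with the seed (bases 2 to 8) in capitals. RefSeq entries were matched for 55 of the 60 members, 24 by the exact name and 31 by name and position. The first pair are the arms of the window that were detected on all 8 arrays.
miR-494: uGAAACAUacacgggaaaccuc
miR-485*: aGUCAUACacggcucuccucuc
Next come the members and the star arm detected on some arrays only, for those with an entry, and miR-376a beside its relative miR-376b.
miR-376b: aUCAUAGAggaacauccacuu
miR-376a: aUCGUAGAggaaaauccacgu
miR-329: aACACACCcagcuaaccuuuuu
miR-667: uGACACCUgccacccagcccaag
miR-411*: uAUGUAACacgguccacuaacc
The last set shows members detected on no array: miR-127 from the Rtl1 antisense group, the first and last miRNAs of the run in Mirg, and miR-134 and miR-370, whose groups did not overlap.
miR-127: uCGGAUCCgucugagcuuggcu
miR-379: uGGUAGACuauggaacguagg
miR-410: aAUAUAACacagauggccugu
miR-134: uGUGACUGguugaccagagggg
miR-370: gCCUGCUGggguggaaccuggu

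The 55 matched members have 55 distinct seeds, so no pair of them shares a seed. miR-376a and miR-376b differ at 3 of 21 positions, G4A, A13C and G20U, counted from 1 at the 5′ end with the base of miR-376a first, and 1 of these lies in the seed. The miR-376 family is a textbook case of A-to-I editing of a miRNA seed in brain. After their values were seen, miR-494 and miR-485* were also compared with each other: both hold the run CAUACACGG, 9 bases long, from base 6 of miR-494 and from base 4 of miR-485*. That run is in 3 of the 67 matched arms of the window and in 3 of 1679 mature mouse miRNAs (0.179%), the other one being miR-154*, which was detected on no array. The run was picked as the longest that miR-494 and miR-485* share, so both hold it by that choice. These counts are therefore no measure of how unusual the run is. The stretch matched is a description of letters and was not tested as a property of the probes.

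The samples were checked against miRNAs that mark cell types. All 7 markers of dendritic and other myeloid cells, miR-223 and miR-142-3p among them, were detected on all 8 arrays. Of 5 stromal markers on the array, 4 were detected on none and miR-10b was detected on 1 CpG array. Their summed total gene signal was -0.650 to 1.27 on untreated arrays and -2.05 to 4.64 on CpG arrays. The endothelial and erythroid pairs (miR-126-3p and miR-126-5p, miR-451 and miR-144) were detected on no array. The lymphoid marker miR-150 and the neural marker miR-124 were also detected on none, while miR-181a and miR-181b, and miR-9 and miR-128, the other markers of those lists, were detected on all 8. Of 5 epithelial markers, miR-200b was detected on all 8 arrays, 2 on some and 2 on none, and of 3 muscle markers miR-206 was detected on 3 CpG arrays and the others on none. Before scaling, the CpG arrays were brighter. The 75th percentile of signal, over the 177 mouse miRNAs that every array detected, was 122 ± 17.5 on untreated arrays and 217 ± 58.5 on CpG arrays (mean ± SD, n = 4 each).

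Few miRNAs of the cluster were detected in these cells, and 1 was detected throughout. A miRNA counts as detected on an array where the scanner software flags its total gene signal, the combined signal of its probes, as present. Of the 60 members, 54 (90%) were detected on no array, 5 on 1 to 3 arrays and miR-494 on all 8. Of the 393 other miRNAs that are not star arms, 182 (46.3%) were detected on no array, 58 on 1 to 7 and 153 (38.9%) on all 8. Members were measured as densely as the rest, with 20 spots for 59 of the 60 and 20 for 392 of the 393 others. In bulk RNA such as this, fewer cells of a type and less RNA per cell cannot be told apart.

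**Figure D1:**
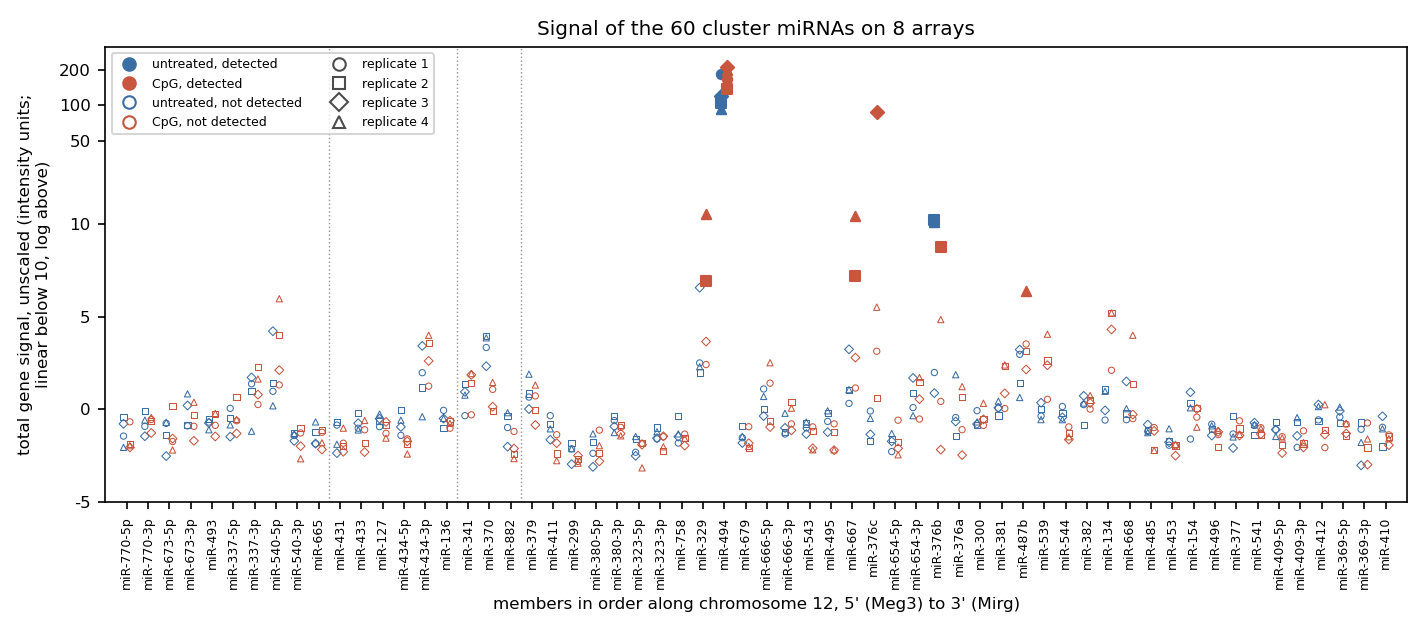
Total gene signal of each of the 60 members on each of the 8 arrays, unscaled, in intensity units (linear below 10, logarithmic above), in order along chromosome 12; filled symbols are detected values, colours the groups, shapes the replicates, and dotted lines the borders between Meg3, Rtl1 antisense, Rian and Mirg members. miR-494 stands between 93.65 and 210.6 on all 8 arrays, miR-376c at 88.47 on 1 CpG array, and the members detected on no array lie between -3.17 and 5.98.

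Array by array, the members detected were 1, 2, 1 and 2 of 60 in untreated replicates 1 to 4, and 1, 4, 2 and 4 in CpG replicates 1 to 4. In percent of members, this was 2.5 ± 0.96 without CpG and 4.58 ± 2.5 with it (SD, n = 4 each). The other miRNAs were detected at 42.2 ± 1.11% and 48.2 ± 1.35%. The share of members was thus lower than the share of the others on each of the 8 arrays, and the gap, members minus others, averaged -41.6 percentage points.

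The groups overlapped in the number of members detected, and the 2 arrays with 4 members, CpG replicates 2 and 4, were also the brightest of the 8, with 75th percentiles of 252.05 and 280.46 intensity units. The difference between groups was 1.25 members on average, 1.0 within the first row of the slide and 1.5 within the second. With detection set instead at a share of at least 0.5 of the spots well above background, it was 0, with signal over 3 times its error 2.5, and with signal above the negative controls and a floor 0.75, the floor being the lowest scaled signal among detected miRNAs (median over arrays). The part of brightness in the difference was not tested.

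**Figure D2:**
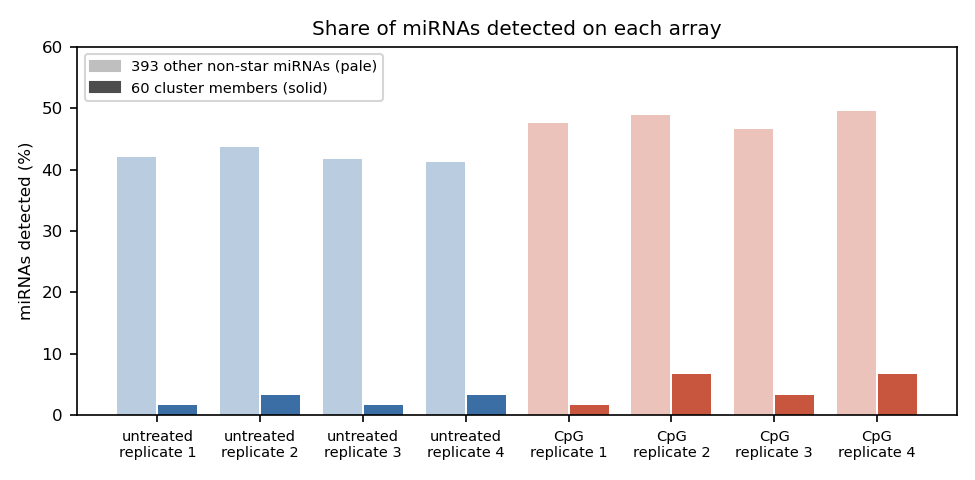
Share of miRNAs detected on each array, in percent, for the 60 members (solid bars) and the 393 other non-star mouse miRNAs (pale bars), untreated in blue and CpG in red. Members lie between 1.67% and 6.67%, and the other miRNAs between 41.2% and 49.6%.

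Along the domain, every member with the software's detection flag lay in Mirg. Under other rules this did not hold: a signal over 3 times its error added miR-540-5p of the Meg3 end and miR-134 of Mirg, and a signal above both the floor and the negative controls added, besides these, miR-370 of the Rian region and miR-434-3p of the Rtl1 antisense group. None of the 10 members at the Meg3 end (miR-770-5p, miR-770-3p, miR-673-5p, miR-673-3p, miR-493, miR-337-5p, miR-337-3p, miR-540-5p, miR-540-3p and miR-665) was flagged as detected on any array. Nor was any of the 6 in the Rtl1 antisense group (miR-431, miR-433, miR-127, miR-434-5p, miR-434-3p and miR-136), or of the 3 in the Rian region (miR-341, miR-370 and miR-882). In Mirg, 35 of 41 members were detected on no array, among them miR-379 and miR-410 at the ends of the run. Mirg holds 41 of the 60 members, so that its 6 detected members are 14.6% of its own and 10% of all.

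The window was also set beside other places in the genome where miRNA genes crowd. Joined wherever neighbours lie within 50 kb, with at least 5 miRNAs that are not star arms, the array holds 9 such clusters, and the window falls into 2 of them because of a gap after miR-370. The first, miR-770-5p to miR-370, had 18 of 18 miRNAs detected on no array, and the second, miR-882 to miR-410, had 36 of 42. The other clusters spread widely, from 0% to 90.5% of their miRNAs detected on no array, with a median of 63.6% over the 7.

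At one end stood the miR-17 to miR-92a cluster on chromosome 14, known as an oncogenic cluster, with 6 of 6 miRNAs detected on all 8 arrays. At the other stood the X-linked miR-743a to miR-465a-5p cluster, with 19 of 21 detected on none. The miR-290 to miR-295 cluster, typical of embryonic stem cells, had 7 of 11 detected on none and 4 on some arrays. The Sfmbt2 cluster on chromosome 2, miR-466f-5p to miR-466h, had 8 of 21 on all arrays. The share of the chromosome 12 members was therefore near that of the X-linked cluster, and none of these differences was tested.

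**Figure D3:**
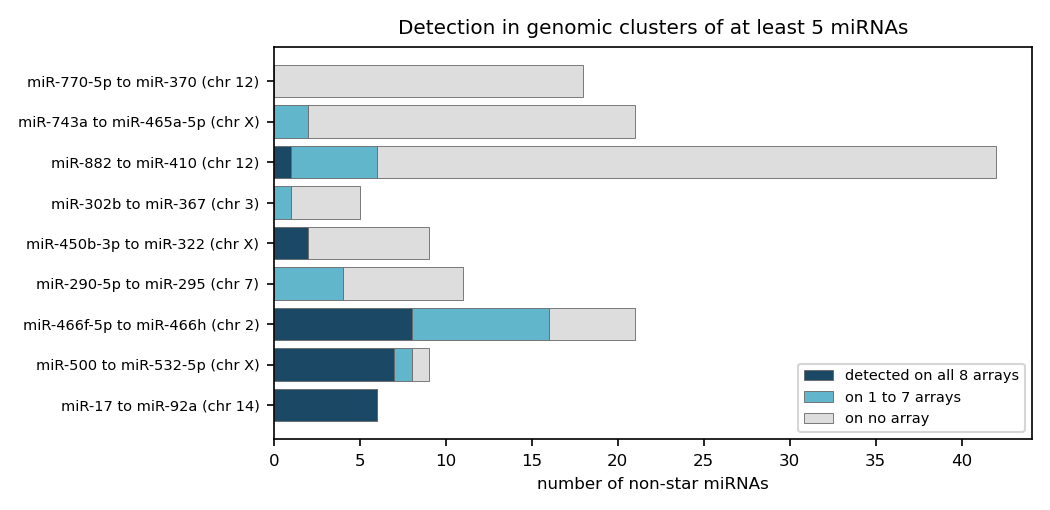
Number of non-star miRNAs detected on all 8 arrays, on 1 to 7 and on none, in each of the 9 genomic clusters of at least 5 miRNAs; each bar is 1 cluster, named by its first and last miRNA. The 2 chromosome 12 bars from miR-770-5p to miR-410 have 54 of their 60 miRNAs on no array.

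miR-494 was the one member detected on every array. Its probe target lies at chr12:110953584-110953598 (mm9), inside Mirg, and the mature arm lies at chr12:109715367-109715388 on the plus strand (RefSeq, GRCm38.p6). In its hairpin of 85 bases, printed with the mature arm in capitals, that arm is the 3′ one, from base 50 to base 71.
Mir494: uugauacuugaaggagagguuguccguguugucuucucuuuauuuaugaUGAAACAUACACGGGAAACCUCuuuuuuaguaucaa

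Its total gene signal was 184.1, 104.0, 119.8 and 93.65 intensity units in untreated replicates 1 to 4, and 166.1, 136.6, 210.6 and 200.5 in CpG replicates 1 to 4. Untreated replicate 1 stood above the other untreated samples and inside the CpG range, so that the groups overlapped. Before scaling, the means were 125 ± 40.6 and 178.5 ± 33.8 (SD, n = 4 each), a ratio of 1.42. All 20 spots of miR-494 were well above background on each of the 8 arrays.

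After scaling, the order of the group means of miR-494 turned. Divided by each array's 75th percentile, the log2 signal of miR-494 was 0.36, -0.69, -0.76 and -0.82 in untreated and -0.41, -1.33, -0.27 and -0.93 in CpG samples. On this scale 0 is the array's 75th percentile, untreated replicate 1 is the highest of the 8, and the groups overlap, as they did for all but 57 of the 212 miRNAs tested (26.9% did not overlap). The means were -0.48 ± 0.56 and -0.74 ± 0.49 (SD, n = 4 each). The difference, CpG minus untreated, was -0.26 (SE 0.32, 95% interval -0.97 to 0.45), which did not pass the test (limma, adjusted p = 0.536).

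Over the 212 miRNAs tested, the median difference was -0.19 after scaling and 0.60 without it, and miR-494 lay -0.07 and -0.06 from these medians. The sign of its difference thus followed the scaling, at 0.54 without it (adjusted p = 0.0951), and it was 0.02 without untreated replicate 1 (adjusted p = 0.967). Within the first row of the slide the difference was -0.44 and within the second -0.07, over 2 arrays a group each.

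miR-494 was the one member that reached the test, which required detection on at least 3 of 4 arrays of a group, so 1 of 60 members (1.67%) was tested against 183 of the 393 others (46.6%). No member passed limma's threshold of an adjusted p of 0.05, and none had an unadjusted p under 0.05. Over all 212 tested miRNAs 30 passed (14.2%), of which 16 were higher and 14 lower (6.6%) in CpG samples. An unadjusted p under 0.05 was found for 85. Without scaling, the split was 88 higher and 0 lower. With a single member tested, the count of 0 says nothing about the other 59.

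Both probes of miR-494 gave the same picture, each read on its own. The probe with a 14-base target had a mean signal of 129.9 ± 39.2 without and 185.0 ± 33.1 with CpG, and the one with a 15-base target 50.1 ± 15.8 and 72.2 ± 14.8 (SD, n = 4 each). All 40 spots a group of either probe were well above background. Over the 8 arrays, the miRNAs whose scaled log2 values were most like those of miR-494 were miR-146b, a miRNA of the Toll-like receptor response (r = 0.893), miR-152 (r = 0.885) and miR-151-5p (r = 0.881), out of 210 compared. On deviations from the group means, r was 0.886, 0.897 and 0.873. These are descriptions over 8 arrays that share 1 slide, and the 3 named are the highest of the 210. On untreated replicate 1 miR-494 was at 0.361, against a mean of -0.757 in the other untreated samples. The part of that array in these values of r was not tested.

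**Figure D4:**
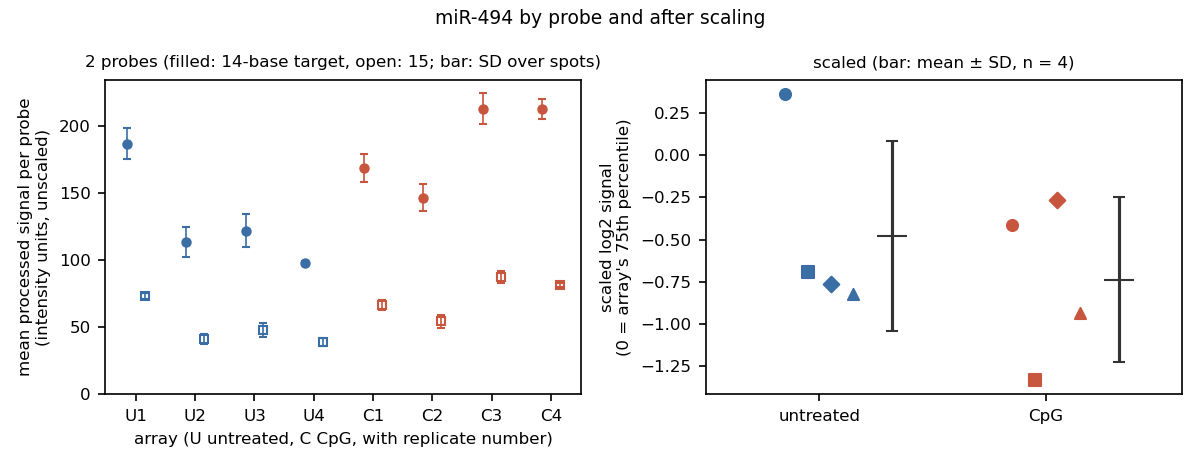
miR-494 by probe and after scaling. Left, mean processed signal of each of its 2 probes on each array, in intensity units (bars, SD over spots); right, scaled log2 signal per array with the mean ± SD of each group (n = 4). Mean signal was higher in CpG samples at both probes, while the scaled values of the groups overlap, with untreated replicate 1 at 0.36.

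The 5 members detected on some arrays lay in Mirg as well, and 4 of them were never far above background. miR-376c (probe target chr12:110960980-110961000, mm9), of the edited miR-376 family, was the exception on a single array. Its total gene signal was -0.095, -1.71, -1.36 and -0.495 in untreated samples and 3.14, 0.619, 88.47 and 5.52 in CpG samples. Every unscaled CpG value lay above every untreated one, but only CpG replicate 3 was detected. On the scaled log2 scale the groups were not apart: CpG replicate 2 was at the floor of -6.545, as was every untreated sample.

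On CpG replicate 3, all 20 spots of miR-376c were well above background, and its 4 probes had means of 63.0, 63.7, 66.8 and 58.2. On the other 7 arrays 2 spots in all were above background, both on untreated replicate 2. On CpG replicate 3 the family members miR-376b and miR-376a were at -2.18 and -2.48, and the star arm miR-376c* was at -1.33. The neighbours miR-667 and miR-654-3p were at 2.79 and 0.547 there, and none of these was detected on CpG replicate 3. The high value thus belonged to 1 miRNA on 1 array, seen by each of its probes.

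miR-376b (chr12:110961721-110961738) was detected on untreated replicates 2 and 4 and on CpG replicate 2. Its signal was 1.99, 10.96, 0.874 and 10.46 in untreated and 0.423, 8.79, -2.18 and 4.85 in CpG samples. Replicates 2 and 4 were higher than 1 and 3 in both groups, and the groups overlapped. Spots well above background numbered 11 and 8 of 20 on untreated replicates 2 and 4 and 1 on CpG replicate 2. miR-376a differs from it at the positions given above and was detected on no array, at -2.48 to 1.87, and whether the probes of one read the other was not tested.

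miR-329, miR-667 and miR-487b were each detected on CpG arrays alone, and those were the 2 brightest arrays. miR-329 (chr12:110951753-110951772), a miRNA linked to dendrite growth in neurons, had signals of 2.51, 1.98, 6.58 and 2.30 in untreated and 2.42, 6.94, 3.66 and 12.28 in CpG samples, detected on CpG replicates 2 and 4. miR-667 (chr12:110958281-110958293) had 0.316, 1.06, 3.24 and 1.06 in untreated and 1.15, 7.23, 2.79 and 11.7 in CpG samples, detected on the same 2 arrays. The groups overlapped for both. Of the 4 probes of miR-667, the one with the longest target (13 bases) had 10 of 20 CpG spots well above background and the other 3 had 0.

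miR-487b (chr12:110965596-110965613) was detected on CpG replicate 4 alone. Its signal was 2.97, 1.41, 3.22 and 0.638 in untreated and 3.53, 3.16, 2.15 and 6.42 in CpG samples. None of its CpG spots was well above background, and the groups overlapped. For these 5 members no fold is given, since both groups were at background on most arrays. None reached the main test, and none passed in the fit with no filter on dim miRNAs that is described below.

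**Figure D5:**
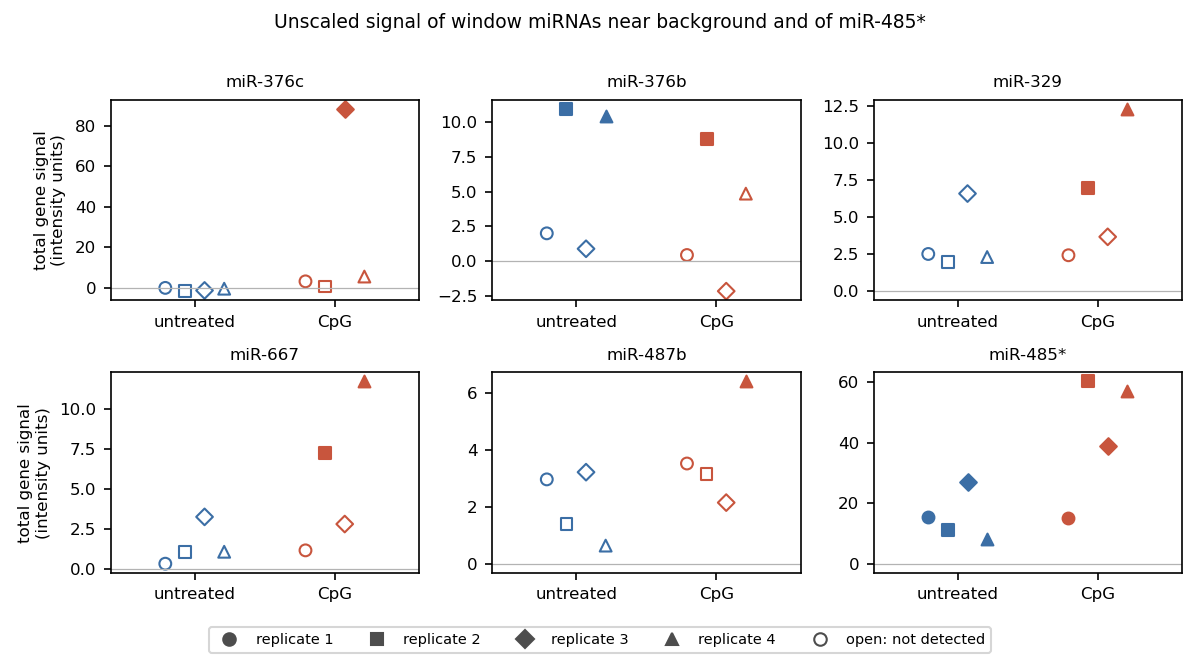
Total gene signal, unscaled, in intensity units on a linear axis, of the 5 members detected on some arrays and of the star arm miR-485*, by group and replicate; open symbols are values not detected, and each panel has its own axis. miR-376c is at 88.47 on CpG replicate 3 and at or below 5.52 elsewhere, and miR-485* is detected on all 8 arrays.

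The 54 members detected on no array gave 432 values between -3.17 and 5.98 with a median of -0.898 intensity units, and 75.9% of them were at or below 0. The 182 other miRNAs detected on no array gave nearly the same range, from -4.01 to 7.80 with a median of -0.855 and 75.3% at or below 0. By place in the domain, values ran from -2.68 to 5.98 at the Meg3 end, from -2.42 to 4.00 in the Rtl1 antisense group, from -2.67 to 3.98 in the Rian region and from -3.17 to 5.21 in Mirg. The negative control spots had means of -0.518 to 0.901 per array. So small a signal limits what the arrays can show: these members were not well above background, which does not give their level.

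Among these 54, the unscaled signals of the groups did not overlap for 7 (13.0%). The share was 3.85% of the 182 others, and 5.93% of all 236 miRNAs detected on no array (14 of 236), members included. The differences between these shares were not tested. CpG samples were higher for miR-134 and miR-539 and lower for miR-370, miR-434-5p, miR-544, miR-369-5p and miR-409-5p. None of these signals had the software's detection flag, and those of miR-434-5p and miR-409-5p were below 0 on every array. Under the other detection rules given above, miR-134 counted as detected by signal over 3 times its error. Both miR-134 and miR-370 did so by signal above the floor and the negative controls. miR-134, which limits the size of dendritic spines in neurons, had -0.585, 1.07, -0.063 and 0.971 in untreated and 2.11, 5.20, 4.32 and 5.21 in CpG samples. miR-370, the last member before the gap, had 3.34, 3.98, 2.33 and 3.86 in untreated and 1.08, -0.074, 0.137 and 1.45 in CpG samples.

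When all 567 miRNAs were tested with no filter on dim ones, 0 of the 60 members passed limma's threshold and 2 had an unadjusted p under 0.05. They were miR-370 and miR-134, for which 4 and 5 of the 8 values were the floor itself, all of the CpG values of miR-370 and all of the untreated values of miR-134 among them, so no size is read from that fit. In that fit 3 of 567 miRNAs passed (0.529%), and 88 of the 567 had an unadjusted p under 0.05.

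Of the 13 star arms in the window, miR-485* was detected on all 8 arrays, miR-411* on 1 and the other 11 on none. Elsewhere, 22 of 101 star arms (21.8%) were detected on all arrays. miR-485* (probe target chr12:110973162-110973177, mm9) is the arm RefSeq names miR-485-3p. Its total gene signal was 15.28, 11.19, 26.85 and 8.23 in untreated and 15.2, 60.16, 38.84 and 57.13 in CpG samples. CpG replicate 1 lay inside the untreated range and the other 3 CpG samples above it. Spots well above background numbered 14, 13, 19 and 4 of 20 in untreated and 15, 20, 20 and 20 in CpG samples.

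The unscaled means of miR-485* were 15.4 ± 8.17 and 42.8 ± 20.7 (SD, n = 4 each), a ratio of 2.78. After scaling, the difference was 0.64 on the log2 scale (SE 0.37, 95% interval -0.19 to 1.47), which did not pass the test (limma, adjusted p = 0.201). It lay 0.83 above the median of all tested miRNAs. It passed without scaling at 1.44 (adjusted p = 0.0362) and without CpG replicate 1 at 0.94 (adjusted p = 0.0442). With normexp background correction it turned to -0.24 (adjusted p = 0.0352), at 0.02 from that fit's median. That correction added an offset of 50 intensity units to every spot, and in its fit 139 of 212 miRNAs passed as lower and 4 as higher with CpG. The part of the offset in this turn was not tested. Within the rows of the slide the scaled difference of miR-485* was 0.48 and 0.80.

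Its partner arm miR-485, a member, was detected on no array and was below 0 on every one, from -2.22 to -0.830. Whether the probes of miR-485* also read miR-494, with which it shares the run printed above, was not tested. miR-411* (chr12:110948440-110948456) was detected on CpG replicate 4 alone, at 10.00, with the other 7 arrays between -1.80 and 4.79, and its partner miR-411 was detected on none.

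Base composition is given for the matched members as a description, since few were detected. miR-494 is 22 bases long with 45.5% G and C. The 3 matched members detected on some arrays had 38.1% to 65.2%, with a median of 40.9%, and the 51 matched members detected on none had 23.8% to 72.7%, with a median of 50%. Lengths ran from 19 to 25 bases, with a median of 22.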

How the data were processed

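Per the file headers, Agilent's Feature Extraction software (9.5.3.1) made the scanner output that the authors deposited for each array: a processed signal per spot, an intensity after background subtraction, and a summary with an intensity (total gene signal) and a detection flag per miRNA. Their series table of 260 rows, also deposited as intensity values, holds the 256 mouse miRNAs detected on at least 1 array, 6 of them members. The submitters' processing notes name limma and give no version.

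Spots without outlier flags were averaged per probe and then per miRNA, scaled to the 75th percentile of the 177 mouse miRNAs that every array detected, and floored at 0.0107 (log2 of -6.55). The 212 miRNAs detected on at least 3 of 4 arrays of a group were tested with limma 3.58.1 under R 4.3.3 (two-sided, lmFit then eBayes, Benjamini-Hochberg over the 212, threshold 0.05). The fit was tested on simulated data. Detection counts, shares and sequence features were described without a test, and precision is limited by the number of arrays. Arrays correlated with r between 0.947 and 0.995 across miRNAs.

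The members, the subgroups, the cell type markers and the tests were chosen with earlier results of these data known. Members detected on all arrays or on 3 of 4 of a group were named with every value, as were those on fewer arrays, with star arms of the window. Members detected on none were to be given by subgroup, and those named with values among them were chosen after their values were seen. Alternatives were other scalings, background, filters, floors and detection rules, the authors' table, blocks for replicate number and slide row, and leaving out each array. The sample descriptions give each CpG sample the same DC number as an untreated sample. They do not say whether same-numbered samples come from the same cells. The main fit left them unpaired. Figures were drawn with matplotlib 3.10.9 in Python 3.11.15.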

Additional observations from a re-analysis of the deposited data

Results flagged for a closer look

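Of 20 groups of 4 samples that were checked, 3 held a sample far from the other 3. The groups were those of window miRNAs detected on at least 1 array and of the detection counts. miR-376c thus entered the check through the same array that was flagged. A chance rate of about 1 in 20 is for groups not chosen by their values, so it is no measure for these. miR-376c on CpG replicate 3 had a total gene signal of 88.47, against 3.09 on average and 0.619 to 5.52 in the other CpG samples. miR-494 in untreated replicate 1 had a scaled log2 signal of 0.361, against a mean of -0.757 and a range of -0.819 to -0.691 in the others. miR-329 in untreated replicate 3, where it was not detected, had a total gene signal of 6.576, against a mean of 2.26 and a range of 1.98 to 2.51 in the others.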

How the results depend on the processing

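The count of members past limma's threshold was 0 in all 22 alternatives. miR-494 was the one member tested in each of them, except in the fit with no filter on dim miRNAs, which took in all 60. Apart from that fit, the count thus restates the result of miR-494 and says nothing about the other members. The count over all tested miRNAs, 30, was 88 without scaling, 93 in the authors' deposited table, 143 with normexp background correction, 48 with a floor 2 times higher, 18 with scaling by the median, 17 with quantile normalization, 3 with no filter on dim miRNAs, and 5 to 68 when 1 array was left out (12, 5 and 17 without untreated replicates 1, 2 and 4, and 68, 11 and 5 without CpG replicates 1, 2 and 3). The difference of miR-494 (-0.26) was 0.54 without scaling and in the authors' table alike (0.541 and 0.539) and between -0.415 and 0.021 with 1 array left out, the highest without untreated replicate 1. It passed in none of the 22, with adjusted p between 0.0951 and 1. That of miR-485* (0.64) ran from -0.24 with normexp to 1.44 without scaling. It passed in 4 of 22, the normexp fit with its reverse sign among them. The difference in members detected, 1.25, was 0 with a share of 0.5 of the spots required above background, 2.5 with signal over 3 errors, and 0.833 to 1.833 with 1 array left out. The gap between the share of members and of others, -41.6 percentage points, was -33.7 and -37.1 with that spot rule and with star arms added, and -42.2 to -41.0 with 1 array left out. By each of those detection rules, miR-494 was the one member found on all 8 arrays. Same-numbered replicates correlated in their deviations from the group means at 0.277, -0.259, 0.25 and 0.096. These values cannot settle whether same-numbered samples are pairs, and the main fit left them unpaired. With the replicate block 38 miRNAs passed and miR-494 was at -0.26 (adjusted p = 0.39), and with slide row as a block 28 passed. The cause of these changes was not tested. Signal over background limits all that is said of the 54 members detected on no array.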
